A study of Mus musculus with 6 samples.

Results

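The genes followed here were 10 named genes of dendritic cells and of the Cd209 lectin family, namely Batf3, Xcr1, Clec9a, Itgae, Irf8, Zbtb46, Flt3, Ccr7, Cd209a and Cd209e. They were taken by name, as array probes whose RefSeq accession maps to one of these symbols. Of the 10 genes, 8 had such a probe, out of 19749 genes named on the arrays. Flt3 and Cd209a had 2 probes each, so the 8 genes rest on 10 probes. Itgae and Zbtb46 were not analysed here. Gene expression was measured in total RNA of whole mouse lung on 6 Agilent 1-colour arrays, 1 array for each of 6 groups of C57BL/6 background. The groups were FcRg-/- mice (labelled FcRg KO), FceRIa-/- mice (labelled FceRIa KO) and wild type (WT) mice, each given mouse histamine-releasing factor (HRF, as the His-tagged protein mHRF-His) or PBS through the nose. The labels give no age, sex, dose or time, and do not say whether an array holds 1 mouse or a pool. There are no replicates, so ratios between single arrays carry no error estimate, and precision is limited by how few arrays there are.

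Dendritic cells take up antigen in the airway wall, carry it to the draining lymph node and present it to T cells. Conventional dendritic cells develop under the growth factor receptor Flt3, and one branch of them needs the transcription factors Irf8 and Batf3 and carries the receptors Xcr1 and Clec9a and the integrin chain Itgae. The other branch, and dendritic cells that arise from monocytes, carry the lectin Cd209a, the mouse gene most often called DC-SIGN. Ccr7 guides mature dendritic cells, and also T and B cells, to lymph nodes. Cd209a and Cd209e belong to a cluster of related C-type lectin genes that bind sugars on microbes and other cells.

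The Cd209 results turn on neighbouring, related genes, and their start regions are shown for that reason, with that of Batf3, the transcription factor that stood with them on the arrays. Each sequence is the 250 bases before the start site, 5′ to 3′ on the gene's own strand, from RefSeq's table of build GRCm38.p6. Cd209a lies at chr8:3748985-3749234, Cd209e at chr8:3854287-3854536 and Cd209d at chr8:3878500-3878749, each on the minus strand, and Batf3 at chr1:191098164-191098413 on the plus strand. Capitals mark matches, on either strand, to 4 motifs searched, namely AP-1 (TGANTCA), PU.1 (GAGGAA), the palindromic STAT motif and the IRF motif, each with any base at its N positions.
Cd209e: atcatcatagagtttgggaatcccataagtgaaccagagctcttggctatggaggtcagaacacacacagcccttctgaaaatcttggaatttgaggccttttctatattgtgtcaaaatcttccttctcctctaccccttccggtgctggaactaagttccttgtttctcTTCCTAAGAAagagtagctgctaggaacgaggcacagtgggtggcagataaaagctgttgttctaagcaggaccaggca
Cd209a: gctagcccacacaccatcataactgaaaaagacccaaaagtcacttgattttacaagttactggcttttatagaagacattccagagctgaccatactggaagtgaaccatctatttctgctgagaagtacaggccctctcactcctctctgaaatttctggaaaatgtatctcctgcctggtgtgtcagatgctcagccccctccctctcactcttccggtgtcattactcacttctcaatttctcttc
Cd209d: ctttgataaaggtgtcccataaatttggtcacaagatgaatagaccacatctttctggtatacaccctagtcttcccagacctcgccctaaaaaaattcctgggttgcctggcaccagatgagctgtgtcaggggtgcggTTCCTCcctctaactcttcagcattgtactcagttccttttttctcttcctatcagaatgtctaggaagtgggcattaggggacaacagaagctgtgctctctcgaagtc
Batf3: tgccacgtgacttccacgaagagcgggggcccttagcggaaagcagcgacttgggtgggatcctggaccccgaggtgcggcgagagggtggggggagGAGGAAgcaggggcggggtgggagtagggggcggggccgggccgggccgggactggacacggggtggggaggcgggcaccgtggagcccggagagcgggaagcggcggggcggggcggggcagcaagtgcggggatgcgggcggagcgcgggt
Over these 250 bases and the next 50, which were searched and aligned together, Cd209e held 1 STAT match that starts 79 bases before the start site, coded as -79. STAT matches were present in 6.95% of all 32851 promoters of that length. Cd209d held 1 PU.1 match at -110 and Batf3 held 1 at -153, against 28.3% of all promoters. Cd209a had no match to any of the 4. AP-1 matches were found in 7.81% of all promoters and IRF matches in 3.44%. The motifs overlap no other match in these windows, and a match is a description of letters and not of binding. In global alignments, Cd209a and Cd209e shared 70.7% of 222 aligned bases, Cd209a and Cd209d 69.1% of 236, and Cd209d and Cd209e 61.4% of 280. The bases left in gaps differ between pairs. By identical bases the order was the reverse, at 157, 163 and 172, so no pair can be called the most alike. Batf3 shared 49.8% with Cd209a and 49.6% with Cd209e.

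Levels are log2 of the processed signal with each array's 75th percentile at 0, and a level of one probe is not set against that of another. Between 67.5% and 79.6% of the 59305 spots other than controls were well above background on an array, and no spot was saturated. Of the 10 probes, 9 were well above background on all 6 arrays. The exception was Xcr1, dim on the PBS array labelled FcRg KO. All 6 lung epithelial genes looked up, among them the surfactant gene Sftpc (8.05 to 8.34) and the club cell gene Scgb1a1 (8.13 to 8.41), were well above background on every array. The genes named by the knockout labels were well above background on the arrays that carry those labels. Fcer1g, which encodes FcRg, stood at 4.32 and 4.14 on the HRF and PBS arrays labelled FcRg KO, against 4.61 and 3.93 on WT HRF and PBS. Fcer1a stood at -1.16 and -0.90 on the HRF and PBS arrays labelled FceRIa KO, against -4.19 and -4.48 in WT. Whether these probes lie in deleted parts is not known here. The arrays labelled FcRg KO also stand apart in B cell genes. The summed linear level of 10 B cell markers was 2.45 and 2.42 times the 75th percentile on the HRF and PBS arrays labelled FcRg KO, against 33.1 and 26.2 on those labelled FceRIa KO and 30.1 and 25.6 in WT. Of the 10, 7 were well above background on every array, and Ms4a1, Pax5 and Blk were not so on the arrays labelled FcRg KO. All 10 were at least 2-fold lower than in WT under the FcRg KO label on PBS and on HRF, beside 3.04% and 3.02% of all genes. For 5 of the 10 the fall passed limma (adjusted p under the threshold of 0.05), beside 0.148% of all genes called. Genotype is therefore named by label throughout, and average HRF effects are given with and without the FcRg KO pair.

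Cd209e had the highest HRF to PBS ratio of the 8 genes under all 3 labels. It stood at log2 -1.92 on the HRF array labelled FcRg KO, against -3.98 on its PBS array, a 4.15-fold difference (log2 2.05). It stood at -3.15 on the HRF array labelled FceRIa KO, against -6.11 on its PBS array, which is 7.75-fold (2.95). In WT it stood at 0.86 with HRF, against -4.22 with PBS, which is 33.7-fold (5.07). All 3 HRF arrays lay above all 3 PBS arrays, and the WT HRF array was the highest of the 6. The WT ratio ranked 5 from the highest among 17435 genes compared, the FcRg KO ratio 18 of 16592 and the FceRIa KO ratio 23 of 16314. Its 3 PBS arrays themselves spanned 2.13 log2 units, because the PBS array labelled FceRIa KO was the lowest of all. That level is near the lowest called well above background there (-6.41), and the ratios of Cd209e depend on how background is removed. With normexp background correction and quantile normalization the log2 ratios were 1.5 for FcRg KO, 1.3 for FceRIa KO and 4.26 for WT.

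Cd209a, the DC-SIGN gene, was at least 2-fold higher with HRF on the WT pair alone. It stood at 0.80 with HRF, against 0.37 with PBS, under the FcRg KO label, and at 0.14 with HRF, against -0.28 with PBS, under the FceRIa KO label. In WT it stood at 1.85 with HRF, against -0.11 with PBS. The log2 ratios were 0.43, 0.41 and 1.96, the last of them 3.89-fold. The HRF and PBS arrays overlap for this probe, since the FcRg KO PBS array lay above the FceRIa KO HRF array. A second, dimmer Cd209a probe gave ratios of 0.39 for FcRg KO, 0.58 for FceRIa KO and 1.69 for WT, and its HRF arrays all lay above its PBS arrays. The probes followed one another over the 6 arrays (Pearson r = 0.98, a description).

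**Figure D1:**
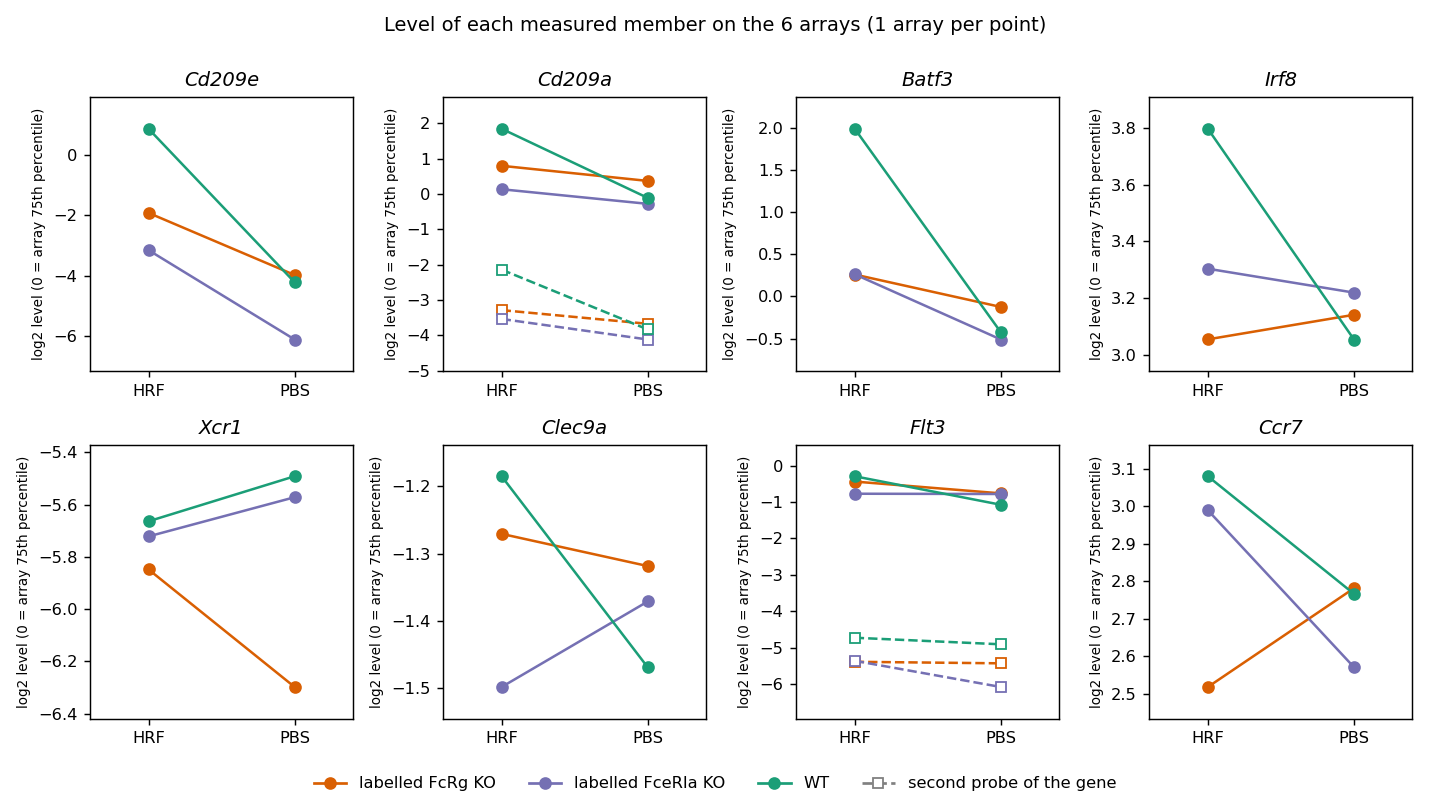
Level of each measured gene on the HRF array (left) and PBS array (right) of each genotype label, as log2 with the array's 75th percentile at 0, and each panel with its own axis range. Each point is 1 array, lines join the arrays of a label, and open squares with dashed lines are second probes. The WT HRF array is the highest of the 6 for every gene but Xcr1, among them Cd209e (0.86), Cd209a (1.85), Batf3 (1.99) and Irf8 (3.80).

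The rest of the Cd209 family did not follow as a block. The list held Cd209a to Cd209g with its neighbours Fcer2a, the low-affinity IgE receptor, and Clec4g, a related lectin, and 8 of the 9 genes were measured. Cd209d stood at 0.64 with HRF, against 0.20 with PBS, for FcRg KO, at -0.19 against -0.46 for FceRIa KO, and at 2.0 against -0.38 in WT. Its log2 ratios of 0.44, 0.26 and 2.38 run close to those of Cd209a, and the pair had r = 0.996 over the 6 arrays. Cd209c likewise had its highest ratio in WT, with 0.19 for FcRg KO, 0.40 for FceRIa KO and 1.69 for WT. A second, dimmer Cd209c probe stood at -4.89 on WT HRF, against -5.86 on WT PBS, and was not well above background on the arrays labelled FceRIa KO. Cd209b, which marks macrophages of the splenic marginal zone, gave 0.15, -0.50 and -0.26 for the same labels, and Cd209f gave -0.31, 0.13 and -0.54. Clec4g gave 0.29, 0.24 and 0.02. The 8 measured genes, and so their counts and median, include Cd209a and Cd209e. Of these 8, 4 (Cd209a, Cd209c, Cd209d, Cd209e) were at least 2-fold higher with HRF in WT, and 1 (Cd209e) under each knockout label. Of all genes compared, 2.32% were in WT, 0.765% under FcRg KO and 1.48% under FceRIa KO. The list's median was 0.36 for FcRg KO, 0.33 for FceRIa KO and 1.25 for WT, beside 0.00, -0.01 and -0.05 over all genes compared. Cd209 genes resemble each other in sequence, and whether a probe reads its neighbours' transcripts was not tested.

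**Figure D2:**
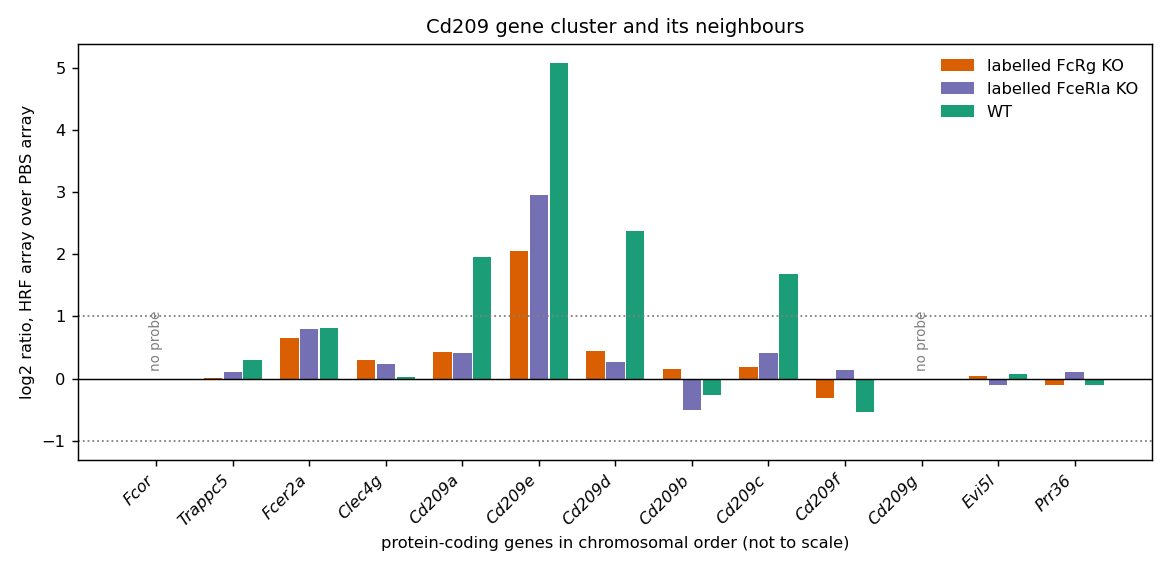
Log2 ratio of the HRF array to the PBS array for the protein-coding genes of the Cd209 cluster, in their order along the chromosome and not to scale, with 1 bar for each genotype label and dotted lines at 2-fold. Cd209a, Cd209e, Cd209d and Cd209c pass 2-fold in WT (1.96, 5.07, 2.38 and 1.69), while Cd209b, Cd209f and Clec4g do not, and Fcor and Cd209g are without a value.

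Batf3, a partner of Irf8 and Jun proteins that conventional dendritic cells of the Xcr1 branch require, was the other transcript more than 2-fold higher in WT. It stood at 0.26 with HRF, against -0.12 with PBS, under the FcRg KO label. It also stood at 0.26 with HRF under the FceRIa KO label, against -0.51 with PBS. In WT it stood at 1.99 with HRF, against -0.43 with PBS, a 5.32-fold difference that ranked 63 of 17435. All 3 HRF arrays lay above all 3 PBS arrays, but the HRF arrays of the knockout labels lay closer to the highest PBS array than to the WT HRF array. The log2 ratios were 0.38 for FcRg KO, 0.77 for FceRIa KO and 2.41 for WT. Over the 6 arrays, Batf3 had r = 0.95 with Cd209a and 0.94 with Cd209e, and the WT HRF array is the highest for each of them.

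Irf8, a transcription factor of the same branch and also of B cells, monocytes and plasmacytoid dendritic cells, differed less. It stood at 3.05 with HRF, against 3.14 with PBS, for FcRg KO, at 3.30 against 3.22 for FceRIa KO, and at 3.80 against 3.05 in WT. The WT ratio was 1.68-fold (log2 0.74), and the ratios of the other labels were -0.09 and 0.08. The WT HRF array stood apart, and the other 5 arrays lay between 3.05 and 3.30. On PBS, Irf8 exceeded WT by 0.09 on the array labelled FcRg KO, while on HRF it was at -0.74 against WT. B cell marker signal is low on both arrays of that label, and the part of B cells in the Irf8 level was not tested.

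The receptors Clec9a, Xcr1 and Ccr7 differed little with HRF. Clec9a, which binds actin exposed on dead cells, ranged over 0.31 log2 units on the 6 arrays, with ratios of 0.05 for FcRg KO, -0.13 for FceRIa KO and 0.28 for WT. Xcr1, the receptor for the chemokine Xcl1, was dim, at -5.85 on the HRF array labelled FcRg KO and below the detection call on its PBS array. With that dim signal taken as it stands, HRF was at least 1.37-fold higher there (log2 0.45). Normexp gave 0.14, so the limit is not firm. Xcr1 stood at -5.72 with HRF, against -5.57 with PBS, for FceRIa KO, and at -5.66 against -5.49 in WT. Those ratios of -0.15 and -0.17 are small, and the WT one changes sign when arrays are scaled on their median. Ccr7 stood at 2.52 with HRF, against 2.78 with PBS, for FcRg KO, at 2.99 against 2.57 for FceRIa KO, and at 3.08 against 2.77 in WT. Its HRF and PBS arrays overlap, and the FcRg KO pair ran opposite to the other pairs (-0.26, against 0.42 for FceRIa KO and 0.31 for WT).

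Flt3, the receptor for the dendritic cell growth factor Flt3l, depended on the probe. The brighter probe stood at -0.44 with HRF, against -0.76 with PBS, for FcRg KO, at -0.77 against -0.78 for FceRIa KO, and at -0.29 against -1.07 in WT. Its WT ratio was 1.72-fold (log2 0.78), and 1.0 when arrays were scaled on their median. The second probe gave log2 ratios of 0.04 for FcRg KO, 0.72 for FceRIa KO and 0.18 for WT, so the label with the highest ratio differs between the probes (r = 0.21 between them). No firm order of the labels can be read for Flt3.

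**Figure D3:**
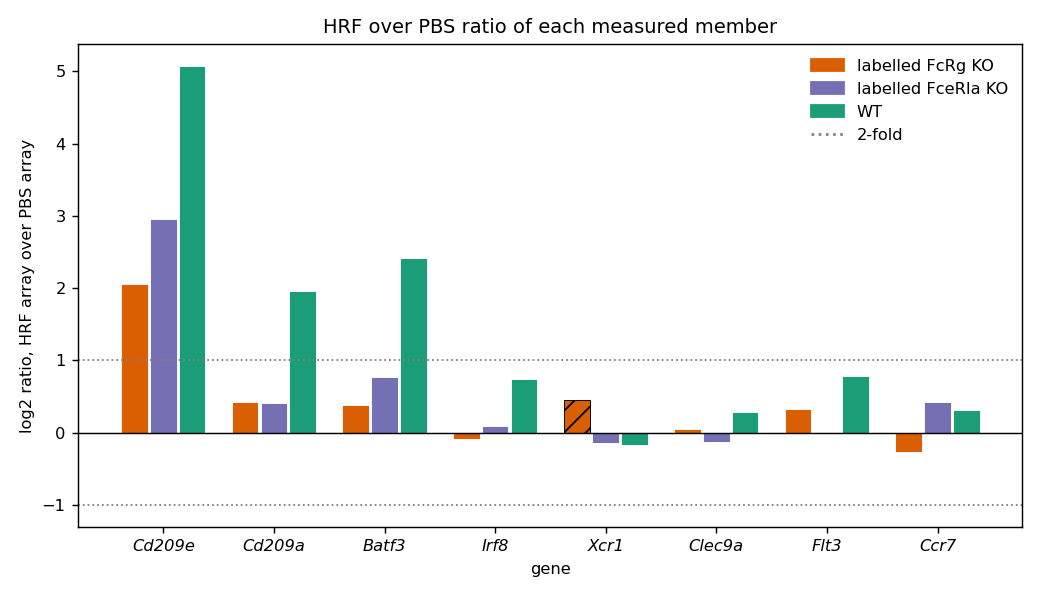
Log2 ratio of the HRF array to the PBS array for the 8 measured genes, with 1 bar for each genotype label, dotted lines at 2-fold, and a hatched bar for the Xcr1 bound. Cd209e passes 2-fold under every label (2.05, 2.95 and 5.07), and Cd209a (1.96) and Batf3 (2.41) do so in WT only.

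Counted together, 1 of the 8 genes (Cd209e) was at least 2-fold higher with HRF under the FcRg KO label, where 0.765% of all genes compared were. Likewise 1 of 8 (Cd209e) passed under the FceRIa KO label, beside 1.48% of all genes, and 3 of 8 (Batf3, Cd209a, Cd209e) in WT, beside 2.32%. None was at least 2-fold lower, beside 1.18% of all genes for FcRg KO, 0.447% for FceRIa KO and 1.52% for WT. The median ratio of the 8 genes was 0.35 for FcRg KO, 0.25 for FceRIa KO and 0.76 for WT, beside 0.00, -0.01 and -0.05 for all genes. Batf3 and Cd209e had all HRF arrays above all PBS arrays, as 5.95% of all genes did. HRF exceeded PBS within each of the 3 labels for 4 of 8 (Batf3, Flt3, Cd209a, Cd209e), as for 16.5% of all genes, although Flt3 did so by 0.01 under FceRIa KO, a sign that normexp turns. In whole lung, more cells of a type and more RNA per cell cannot be told apart.

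The average HRF effect, HRF minus PBS with genotype label as an additive term, was tested with limma over 17605 genes. The residual of this fit is the interaction of label and challenge, and not the spread between mice. No gene passed an adjusted p of 0.05 (0.00% of all genes, lowest adjusted p = 0.556), and 1554 genes had an unadjusted p under 0.05 (8.83%), among them Cd209e alone of the 8. Cd209e averaged -1.41 ± 2.06 on HRF arrays and -4.77 ± 1.17 on PBS arrays (SD, n = 3 each). Its average effect was 3.36 (SE 0.67, 95% interval 1.43 to 5.30, limma adjusted p = 0.556), higher with HRF under 3 of 3 labels. Without the FcRg KO pair it was 4.01, without the FceRIa KO pair 3.56 and without the WT pair 2.50, with adjusted p between 0.583 and 0.903. Batf3 gave 1.19 (SE 0.47, 95% interval -0.16 to 2.54) and Cd209a 0.93 (SE 0.39, interval -0.18 to 2.05), each with a limma adjusted p of 0.556. These averages lean on the WT pair: without it Batf3 was at 0.58 and Cd209a at 0.42, and without the FcRg KO pair they were at 1.59 and 1.19. Flt3 (0.37), Irf8 (0.25), Ccr7 (0.16), Clec9a (0.07) and Xcr1 (0.04) had intervals that include 0. That of Clec9a ran between -0.25 and 0.38. Without the FcRg KO pair these averages were 0.40 for Flt3, 0.41 for Irf8, 0.37 for Ccr7, 0.08 for Clec9a and -0.16 for Xcr1. All limma values of Xcr1 that include that pair take its signal on the dim PBS array as it stands.

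Whether WT differed from the other labels in its HRF response was tested with 1 interaction term, which leaves 1 residual degree of freedom. That residual is the difference between the HRF responses of the knockout labels, and not the spread between mice or of the WT pair. An interval is narrow where those responses lie close, as for Cd209a (0.43 for FcRg KO and 0.41 for FceRIa KO). The difference, WT response minus that of the knockout labels, was 2.57 for Cd209e (95% interval 0.73 to 4.41), 1.83 for Batf3 (0.94 to 2.73), 1.54 for Cd209a (1.08 to 1.99) and 0.75 for Irf8 (0.18 to 1.31). These 4 of 8 had an unadjusted p under 0.05, as 1530 of all 17605 genes did (8.69%). None passed after adjustment (limma adjusted p = 0.569 for each), and no gene of the table did. The remaining 4 genes lay between -0.32 (Xcr1) and 0.62 (Flt3). In the same test of the FcRg KO label, no gene passed and 1026 had an unadjusted p under 0.05 (5.83%), with Ccr7 at -0.63 (adjusted p = 0.835) among them. Xcr1 was also among them, but that difference rests on the array where it is not well above background, and no value is given for it. For the FceRIa KO label 608 genes had one (3.45%), none of them among the 8, and none passed.

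**Figure D4:**
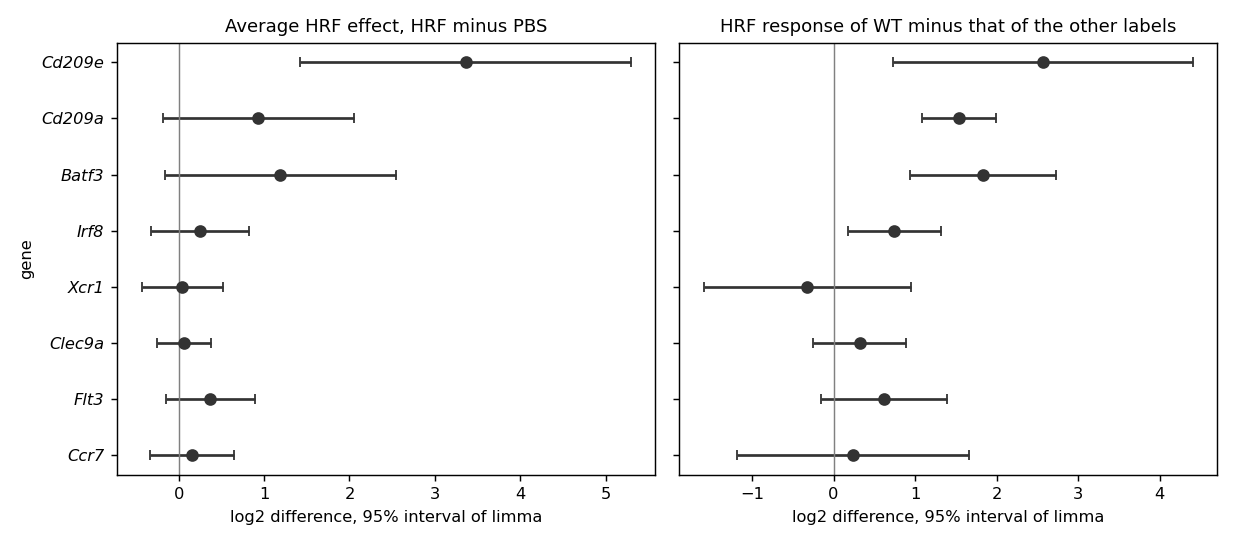
Average HRF effect (HRF minus PBS, left) and the WT HRF response minus that of the other labels (right) for the 8 measured genes, as log2 differences with the 95% interval of limma over 6 arrays. The interval of Cd209e lies above 0 in both panels (1.43 to 5.30 and 0.73 to 4.41), and no gene passes after adjustment over all genes. The intervals do not measure the spread between mice.

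Between labels, Cd209e alone was past 2-fold on PBS, and Cd209e, Batf3 and Cd209a were on HRF. On PBS, none of the 8 was at least 2-fold lower under the FcRg KO label than in WT, beside 3.04% of all genes, and their median ratio was 0.20. For Xcr1 only a limit could be had, of at least 1.75-fold lower (-0.81), and with normexp that value was -0.08, so the limit is not firm. Under the FceRIa KO label 1 of 8 was at least 2-fold lower, beside 2.88%, namely Cd209e at -1.89 (3.71-fold lower). That value was -0.48 with normexp and quantile normalization, which leaves no gene past 2-fold. The second Flt3 probe was 2.26-fold lower in that comparison (-1.17), whereas the brighter one gave 0.30. Small ratios on PBS change sign with the scaling, among them those of Batf3 (-0.09), Cd209a (-0.17) and Ccr7 (-0.20) for FceRIa KO over WT under median scaling.

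On HRF, all 8 genes were lower under each knockout label than in WT, although the sign for Xcr1 (-0.18 and -0.06) turns with normexp and, for FceRIa KO, with median scaling. The median ratio of the 8 was -0.65 for FcRg KO and -0.49 for FceRIa KO, beside 0.03 and -0.01 for all genes. Cd209e was 6.87-fold lower under the FcRg KO label (log2 -2.78) and 16.1-fold lower under the FceRIa KO label (-4.01). Batf3 was 3.31-fold lower under both (-1.73 and -1.72). Cd209a was 2.07-fold lower under FcRg KO (-1.05) and 3.28-fold lower under FceRIa KO (-1.71). These 3 of 8 passed 2-fold under each label, beside 3.02% of all genes for FcRg KO and 2.29% for FceRIa KO. The comparisons share the WT HRF array, on which these genes are high. Irf8 was at -0.74 and -0.49. Averaged over both challenges, limma called none of the 8 between a knockout label and WT. It called 26 genes for FcRg KO (0.148%), where 2363 had an unadjusted p under 0.05 (13.4%, none of the 8), and none for FceRIa KO (0.00%), where 2263 did (12.9%). Cd209e was the gene of the 8 nearest to the threshold, at -2.95 for FceRIa KO minus WT (SE 0.82, adjusted p = 0.328).

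The genes were set beside wider lists of the same cells, chosen with earlier results of these data known. These are not separate sets, since all but the plasmacytoid list hold genes followed here. Ccr7 is in the migratory and mature list, and Cd209a in the conventional DC2 list. Batf3, Xcr1, Clec9a and Irf8 are in the conventional DC1 list, and Flt3 is in the pan-conventional list. The list counts and medians include these genes. The counts of these lists stand beside 0.765% of all genes for FcRg KO, 1.48% for FceRIa KO and 2.32% for WT. Their medians stand beside 0.00, -0.01 and -0.05 for all genes. In the list of migratory and mature dendritic cells, none of 17 genes was at least 2-fold higher with HRF under the FcRg KO label, 4 of 17 were under the FceRIa KO label and 6 of 17 in WT. The medians were 0.08, 0.14 and 0.52. Ccl17, a chemokine that attracts T helper cells, gave 0.85 for FcRg KO, 2.38 for FceRIa KO and 2.89 for WT. Il4i1, an enzyme that breaks down amino acids, gave 0.23, 2.24 and 2.54. Ccl22, a chemokine that shares its receptor with Ccl17, gave -0.08, 1.70 and 1.98. These ratios under the FceRIa KO label are near those in WT, unlike the ratios of Batf3 and Cd209a, and that difference between genes was not tested. Slco5a1 was the lowest of the list in WT (-0.996).

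Among conventional DC2 genes, 1 of 12 was at least 2-fold higher under FcRg KO, 0 of 12 under FceRIa KO and 3 of 12 in WT. Cd209a is among those 3. The medians of the 12 genes differed less between labels, at 0.37 for FcRg KO, 0.23 for FceRIa KO and 0.39 for WT. Pdcd1lg2, a ligand of the T cell receptor PD-1, gave 1.45, 0.20 and 2.54, and Notch2 was lowest in WT (-0.28). Of 11 conventional DC1 genes, Batf3 alone passed 2-fold, in WT, and Snx22 was the lowest at -0.57. The medians of that list were 0.15 for FcRg KO, 0.02 for FceRIa KO and 0.28 for WT. Of 9 pan-conventional genes, Kmo, an enzyme of tryptophan breakdown, passed in WT alone (0.35, 0.37 and 1.44), and Adam23 was the lowest (-0.37). Plasmacytoid dendritic cell genes had 2 of 12 past 2-fold in WT, with Klk1 the highest at 1.26 and Runx2 the lowest at -0.27, and 0 under both knockout labels. No gene of these lists passed limma for the average HRF effect.

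Ligands and partners of the 8 genes were also counted. Of 20 genes, 1 was at least 2-fold higher with HRF under FcRg KO, 2 under FceRIa KO and 9 in WT, with medians of 0.06, 0.16 and 0.79. Of all genes compared, 0.765%, 1.48% and 2.32% were, with medians of 0.00, -0.01 and -0.05. Batf, which can stand in for Batf3 in mice, gave 0.04 for FcRg KO, 0.59 for FceRIa KO and 1.57 for WT. Nfil3, a transcription factor in the development of the Batf3-dependent branch, gave 0.18, 0.61 and 2.01. Ccl19, a ligand of Ccr7, gave -0.30, 1.14 and 2.36, whereas Ccl21a, the other ligand, gave -0.01, -0.04 and 0.22. Xcl1, the ligand of Xcr1, gave 0.36, 0.15 and 1.68, and Flt3l gave 0.09, -0.36 and -0.26. Il4, a type 2 cytokine used with Csf2 to grow dendritic cells from monocytes, gave 0.91, 0.32 and 2.16. For Il13, another type 2 cytokine, only bounds could be had, of at least 4.88-fold for FcRg KO, 1.23-fold for FceRIa KO and 53.1-fold for WT, since its PBS levels were too dim. Csf2 ran differently, at -0.04 for FcRg KO, 1.77 for FceRIa KO and 0.84 for WT. Spi1, which encodes PU.1, gave 0.03, 0.13 and 0.71.

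Markers of other cells that can hold these transcripts were summed on each array. The summed level of 11 monocyte and interstitial macrophage markers was 62.5 with HRF, against 60.8 with PBS, for FcRg KO, 70.3 against 52.8 for FceRIa KO, and 82.4 against 54.6 in WT. In WT, 3 of 11 were past 2-fold, among them Cd14 (1.70) and Ccr2 (1.3), beside 2.32% of all genes. All 11 were well above background on every array. The summed level of 12 T cell markers was 31.9 with HRF, against 33.2 with PBS, for FcRg KO, 26.4 against 22.5 for FceRIa KO, and 32.2 against 24.1 in WT, with 0 of 12 past 2-fold. The 10 alveolar macrophage markers summed to 316 with HRF, against 216 with PBS, for FcRg KO, 217 against 189.8 for FceRIa KO, and 229.9 against 183 in WT. These sums lean on the brightest marker, Chil3, which stood at log2 7.94 with HRF, against 7.17 with PBS, for FcRg KO. The median log2 ratio of the 10 markers was 0.08 for FcRg KO, 0.01 for FceRIa KO and 0.19 for WT. The 8 markers of lymphatic vessels and lymph node stroma summed to between 68.0 and 85.3 on all arrays, and Cxcl13 among them gave -0.32 for FcRg KO, 2.03 for FceRIa KO and 3.04 for WT. The part of these cells in the results for the 8 genes was not tested.

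**Figure D5:**
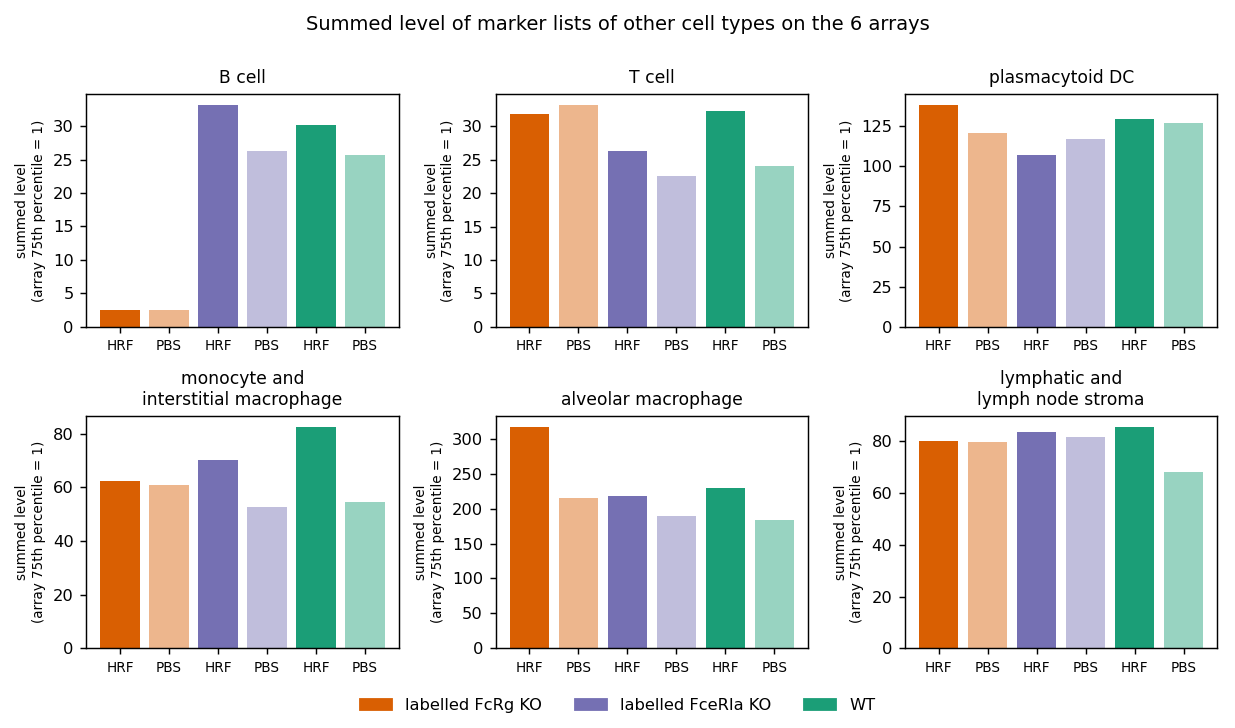
Summed linear level of the markers of 6 other cell types on each array, in multiples of the array's 75th percentile, with the HRF array (dark) left of the PBS array (light) of each genotype label. The B cell bars are near 2.4 on the arrays labelled FcRg KO and between 25.6 and 33.1 on the others, and the monocyte and interstitial macrophage bar is highest on the WT HRF array (82.4).

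The genes most like 3 of these genes were found by Pearson r over the 6 arrays among 15679 genes well above background on all of them. For Cd209e they were Gpr33 (r = 0.996), a receptor related to chemoattractant receptors, the transcription factor Sox9 (0.993) and Rgs1 (0.993), a regulator of G protein signalling. On WT HRF against WT PBS, Gpr33 stood at -4.43 against -4.73, Sox9 at -3.04 against -3.88 and Rgs1 at -0.43 against -2.03. Each differed far less than Cd209e (0.86 against -4.22), and r does not measure the size of a difference. The genes most like Batf3 were Nrros (0.997), Ak6 (0.997) and Rab3il1 (0.992). In WT with HRF against PBS, Nrros stood at 3.82 against 2.84, Ak6 at 0.32 against -0.01 and Rab3il1 at 2.25 against 1.32. The genes most like Xcr1 were Plcg1 (0.993), the toll-like receptor Tlr12 (0.990) and Pcgf3 (0.986), each lowest on the PBS array labelled FcRg KO. Xcr1 itself was not well above background on that array. Its r values lean on that dim signal (-6.30), since its levels on the other arrays lay between -5.85 and -5.49. With 6 arrays and a search over this many genes, such values describe these arrays only.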

How the data were processed

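Agilent Feature Extraction 10.7.3.1 read the spots of a design annotated on mm9, per the file headers. It gave each deposited processed intensity after subtracting background and removing spatial trends on that array, with no scaling between arrays, per the file headers. The deposited value table holds log2 values whose centring is unstated. Its HRF minus PBS differences matched those of the scanner files in scale and direction (r between 0.992 and 0.996 across probes, slope near 1), and the median of its columns was 0.1 on the WT PBS array and 0 elsewhere.

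Control and outlier spots were left out, spots of a probe averaged, and each array's 75th percentile set to 0 on the log2 scale, with no pseudocount. Of 55681 probes, 26051 were named through RefSeq accessions with the table of GRCm38.p6, which gave 19749 genes. The probe with the highest mean stands for a gene with several. Comparing 2 arrays needed a probe well above background on 1 or both. With 1 dim side, the dim signal or, if higher, the lowest signal well above background on that array gives a limit, written "at least".

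With 1 array per group, ratios within a label have no test, and genes past 2-fold were counted. Effects over all 6 arrays were fitted in R 4.3.3 by limma 3.58.1 (lmFit, then eBayes, label and challenge as terms, Benjamini-Hochberg over 17605 genes). The additive fit has 2 residual degrees of freedom and each interaction fit has 1. The fits were checked on simulated data. Other steps used Python 3.11.15 with pandas 2.3.3 and, for alignments, biopython 1.88.

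The 10 genes and all lists were chosen with earlier results of these data known. Named beside them were at most 4 genes of a list, taken from those with the highest and lowest WT ratio and average HRF effect and not all printed, any gene of the Cd209 family and of the ligand and partner list, the 3 genes most like Cd209e, Batf3 and Xcr1, and others where a result turns on them. Ccl22, Il4i1, Ccr2, Chil3 and the lung epithelial genes were named after their values were seen. Alternatives were normexp (offset 50) with quantile normalization, the value table, median scaling, the mean of a gene's probes, no and a stricter filter on dim probes, other fold thresholds and leaving out each pair of arrays.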

Additional observations from a re-analysis of the deposited data

How the results depend on the processing

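The precision is set by 1 array per group. Of 679 values recomputed for the 8 genes and Fcer2a, 645 kept their direction and their side of the threshold, and 5 came to 0. Values of the other genes named here are not among them. The 3 that changed side were the Flt3 ratio in WT under median scaling (1.0), the Cd209e ratio of FceRIa KO over WT on PBS with normexp (-0.48), and Fcer2a, which missed the threshold for FcRg KO minus WT in the value table (adjusted p = 0.063). Another 26 changed sign, none of them past its threshold. They were 14 ratios of Batf3, Xcr1, Flt3, Ccr7 and Cd209a, at most 0.31 in size before, and 12 limma effects. Leaving out each pair, average HRF effects ran from -0.040 (without WT) to 0.166 for Clec9a, from -0.0012 (without WT) to 0.415 for Irf8 and from -0.161 (without FcRg KO) to 0.150 for Xcr1. Under median scaling FceRIa KO minus WT became 0.075 for Xcr1, 0.037 for Clec9a, 0.052 for Flt3, 0.0012 for Ccr7 and 0.050 for Fcer2a, and with normexp 0.11 for Xcr1. With the mean of probes Flt3 became -0.25 for FcRg KO minus WT and 0.031 for the FceRIa KO response against the other labels, and in the value table Clec9a became 0.05 for the FcRg KO response against the other labels. None of the 8 genes passed limma under any setting. Leaving out each pair of arrays in turn gave average HRF effects of 2.50 to 4.01 for Cd209e, 0.58 to 1.59 for Batf3 and 0.42 to 1.19 for Cd209a. Median scaling moves the median ratio of all genes by 0.22 for HRF over PBS in WT, 0.27 for FcRg KO over WT on PBS and 0.23 for FceRIa KO over WT on PBS. Each label's HRF and PBS arrays enter the average HRF effect as a pair through the label term.

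Counts over all genes depended more on the setting, and the cause was not tested. Genes at least 2-fold higher with HRF numbered 127 for FcRg KO, 242 for FceRIa KO and 404 for WT. With normexp they were 27 for FcRg KO and 118 for FceRIa KO, and with no filter on dim probes 483 and 587. For FcRg KO they were 226 in the value table and 197 with the mean of probes, and for WT 646 under median scaling. A threshold of 1.5-fold gave 508, 602 and 918 in the order FcRg KO, FceRIa KO and WT, and 3-fold gave 43, 102 and 176. These counts are out of 16592, 16314 and 17435 genes compared, in the same order. At 1.5-fold, 1 of the 8 genes passed for FcRg KO, 2 for FceRIa KO and 5 for WT.

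Genes at least 2-fold lower than in WT numbered 528 for FcRg KO and 501 for FceRIa KO on PBS, and 511 and 387 on HRF. In that order of 4 they were 82, 41, 295 and 169 with normexp, 1075, 1216, 789 and 815 in the value table, and 1658, 1833, 1164 and 1267 with no filter. The mean of probes gave 1071 and 1254 on PBS and 796 for FceRIa KO on HRF. Median scaling gave 970 for FceRIa KO on PBS and 720 on HRF, and the stricter filter 291 and 215 on PBS. With normexp, 0 of the 8 genes passed for FceRIa KO on PBS, against 1.

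Limma calls for FcRg KO minus WT were 26, and 43 with normexp, 11 in the value table and 16 with no filter. For FceRIa KO minus WT they were 0, and 2 with normexp and 25 under median scaling. For the FceRIa KO response against the other labels they were 0, and 131 under median scaling.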

Other observations

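Fcer2a, which encodes the low-affinity IgE receptor CD23 of B cells and lies beside the Cd209 cluster, differed with HRF by much the same ratio under every label. It stood at -2.60 with HRF, against -3.25 with PBS, for FcRg KO, at 0.31 against -0.49 for FceRIa KO, and at 0.41 against -0.40 in WT. The log2 ratios were 0.65, 0.80 and 0.81, and the average HRF effect was 0.76 (SE 0.08, limma adjusted p = 0.556, higher under 3 of 3 labels), or 0.81 without the FcRg KO pair. Fcer2a fell on the arrays labelled FcRg KO against WT (log2 -2.93, SE 0.09, limma adjusted p = 0.025, lower on 2 of 2 arrays). All 10 B cell markers were at least 2-fold lower there on PBS and on HRF, and 5 of them passed limma. So did Ly6d (-4.30, adjusted p = 0.0083) and Spib (-4.04, adjusted p = 0.0083) of the plasmacytoid list, which B cells also express. The scavenger receptor Marco, an alveolar macrophage gene, gave HRF to PBS ratios of 0.13 for FcRg KO, 1.76 for FceRIa KO and 1.33 for WT.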
